A study of Drosophila melanogaster with 4 samples.

Results

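The long non-coding RNAs (lncRNAs) described here are the genes whose FlyBase symbol begins with lncRNA: or asRNA: and that held at least 20 counts in each of 4 polysome-seq libraries of Drosophila melanogaster ovaries, without the host genes of small nucleolar RNAs. They were 78 of the 2382 genes with such symbols, and 78 of the 7448 genes of any kind that reached this minimum among 17699 genes counted. Of the 78, 56 had a lncRNA: symbol and 22 an asRNA: symbol, which marks a transcript annotated as antisense to another gene. Counts in all 4 libraries chose these genes, and polysome over input in each replicate sorted them into those lower in both, higher in both or split. Their levels and ratios are therefore given as descriptions, with no test.

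A lncRNA is a transcript with no long conserved open reading frame. Some lncRNAs stay in the nucleus, at their own gene or in nuclear bodies, and others are exported, where ribosomes can bind short open reading frames in them. In Drosophila the best known members build the male dosage compensation complex (roX RNAs) or gather RNA-binding proteins into nuclear speckles after heat shock (Hsromega).

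All 4 libraries came from ovaries of flies carrying UAS-Dicer2;NosGAL4 > bam RNAi, together with hs-bam. A germline driver with extra Dicer-2 knocked down bam, the gene that lets stem cell daughters differentiate, and a heat-inducible bam transgene was then switched on to enrich for germline cysts. Heat shock was given on 2 days, each with a pair of 2 h periods at 37°C that were 4 h apart, so no library is free of heat shock, and ovaries were dissected 3 to 5 days after eclosion. Polysome libraries (replicates 1 and 3) held RNA from the polysome part of a gradient, and input libraries (replicates 1 and 3) held RNA from the same kind of lysate kept aside. The driver acts in germ cells, whereas whole ovaries also hold follicle cells, muscle sheath and blood cells. Poly(A) RNA was selected in every library, so transcripts without a poly(A) tail were not measured. Polysome RNA was extracted with phenol-chloroform and input RNA with TRIzol, and extraction and fraction cannot be told apart.

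Gene counts totalled 19452659 and 22647905 in polysomes 1 and 3, against 10646651 and 12298615 in inputs 1 and 3. Levels are given as CPM (counts scaled to a common library size) adjusted by the trimmed mean of M values (TMM), and, where genes are compared with each other, as TPM, which also divides by exonic length. Markers of follicle cells and eggshell (11 genes) summed to 3030 and 10590 CPM in the polysomes, against 1789 and 2124 CPM in the inputs. Muscle sheath markers (10 genes) summed to 25810 and 7760 CPM in the polysomes, against 23620 and 30550 CPM in the inputs. Germline markers (6 genes) summed to 805 and 965 CPM in the polysomes and 848 and 903 CPM in the inputs, although bgcn had 88.1 and 5.14 CPM in the polysomes against 42.7 and 50.1 CPM in the inputs, and bam 77.5 and 34.5 CPM against 55.7 and 144 CPM, and the testis genes Mst87F and dj were at 0 in every library. Polysome 3 therefore stood apart from the other 3 libraries in its muscle and eggshell RNA and in bgcn. Polysome 1 stood apart in its reads naming no gene, at 10.8% of reads against 33.2% to 42.6% in the other 3. In whole ovaries, fewer cells of a type and less RNA per cell cannot be told apart.

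Most annotated lncRNAs were not detected in these ovaries. Any count at all was found for 613 of the 2382 (25.7%), and 1990 reached 20 counts in no library. By library, any count was found for 269 and 271 in polysomes 1 and 3, and for 254 and 494 in inputs 1 and 3. The minimum was reached in 1 library by 167, in 2 libraries by 84, in 3 by 63 and in 4 by the 78 described here. Of the 314 that reached it in 1 to 3 libraries, 281 (89.5%) were at 0 counts in another library, beside 1470 of 1863 protein-coding genes (78.9%). Both polysomes but neither input reached it for 9 lncRNAs, and both inputs but neither polysome for 16. The same 20 counts corresponded to 0.945 and 0.822 CPM in polysomes 1 and 3, against 1.94 and 1.84 CPM in inputs 1 and 3, so the minimum was easier to reach in the deeper polysome libraries.

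The edge of the set lay at very low levels. The 3 members nearest the minimum were CR43870, with 41 and 36 counts in polysomes 1 and 3 against 33 and 20 in inputs 1 and 3, Irar, with 59 and 28 against 20 and 27, and CR46006, with 72 and 21 against 44 and 58. Just outside, at a lowest count of 19, were CR45615, with 64 and 151 counts in the polysomes against 19 and 44 in the inputs, asRNA:CR43426, with 60 and 38 against 47 and 19, and asRNA:CR43468, with 39 and 19 against 25 and 59. The prefix lncRNA: is left out of gene names here and in what follows.

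Of 24 symbols of lncRNAs with a described role, 15 matched a gene in the files, and among these Hsromega and dntRL were members. Both roX RNAs fell short: roX1 had 31 and 12 counts in the polysomes against 0 and 11 in the inputs, and roX2 had 0 and 0 against 28 and 0. The let-7 complex precursor let7C had 28 and 2 counts in the polysomes and 48 and 20 in the inputs. The bithorax transcript iab8 had 0 and 0 counts in the polysomes and 36 and 8 in the inputs, and the piRNA precursor flam had 0 and 0 against 0 and 8. The other 8 matched symbols held from 0 to 45 counts in any library, and bxd, yar, CRG and TS1 had none in any. A count of 0 allows up to 0.142 and 0.123 CPM in polysomes 1 and 3, and up to 0.291 and 0.276 CPM in inputs 1 and 3 (3 counts per library, counting error only). The 6 protein-coding genes of the dosage compensation list, the partners of the roX RNAs, all reached the minimum: 2 (mle and mof) were lower in polysomes in both replicates, none was higher in both and 4 were split. Among all 7448 genes at the minimum, 26.8% were lower and 25.5% higher in both.

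The 78 lncRNAs made up a small part of the poly(A) RNA, and a smaller part in polysomes. They held 0.199% and 0.241% of gene counts in polysomes 1 and 3, against 0.283% and 0.389% in inputs 1 and 3. Their summed level was 1828 and 2246 CPM in the polysomes and 2922 and 4392 CPM in the inputs, and without Hsromega it was 1512 and 2002 CPM against 2258 and 3361 CPM. In both forms the 2 polysome sums lay below the 2 input sums. Mean input levels ran from 2.03 to 848 CPM with a median of 14.1 CPM. Only 6 members averaged above 100 CPM, 41 lay between 10 and 100 CPM and 31 below 10 CPM.

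By CPM, Hsromega was the highest member of both inputs. It is the lncRNA of the heat shock locus at 93D, at chr3R:21296127-21317836 of the BDGP6.54 annotation, on the plus strand, as a single merged exon of 21710 bases that overlaps no protein-coding gene. It had 316 and 244 CPM in polysomes 1 and 3, against 664 and 1032 CPM in inputs 1 and 3. Both polysome values lay below both input values, with log2 polysome over input of -1.07 in replicate 1 (95% counting interval -1.12 to -1.02) and -2.08 in replicate 3 (-2.13 to -2.04). Counting intervals here are exact Clopper-Pearson intervals, and since PCR reads without molecular identifiers are not independent molecules they cover counting error only. Hsromega took 17.3% and 10.9% of the members' counts in the polysomes, against 22.7% and 23.5% in the inputs.

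Genes listed as partners of Hsromega or as heat-shock genes were more often lower than higher in polysomes in both replicates. Of 8 genes listed as partners of its speckles, 6 were lower in polysomes in both replicates and 1 (Hrb87F) was higher in both. Their median log2 ratios were -0.05 and -0.58 in replicates 1 and 3. Several of the 6 lay near 0 in replicate 1: Saf-B at -0.02, HnRNP-K at -0.03, Iswi at -0.08 and Hrb98DE at -0.12. Total-count scaling moved the median of all genes by more than this, 0.17 in replicate 1. In this list sqd, an hnRNP also needed for localised oocyte mRNAs, had 686 and 1612 CPM in the polysomes against 978 and 2232 CPM in the inputs. Of 11 heat-shock mRNAs at the minimum, 9 were lower in both and none was higher in both, with medians of -0.38 and -1.75. Hsp68, an Hsp70-class chaperone, had 1696 and 440 CPM in the polysomes against 2246 and 2714 CPM in the inputs. The median over all 7448 genes was 0.01 in replicate 1 and -0.04 in replicate 3, and 26.8% of them were lower and 25.5% higher in both. The Hsp70 copies share near-identical sequence, so their individual counts are uncertain. Of 7 genes of nuclear RNA surveillance and export, 2 (Pabp2 and sbr) were lower in both and 1 (Nxt1) was higher in both.

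**Figure D1:**
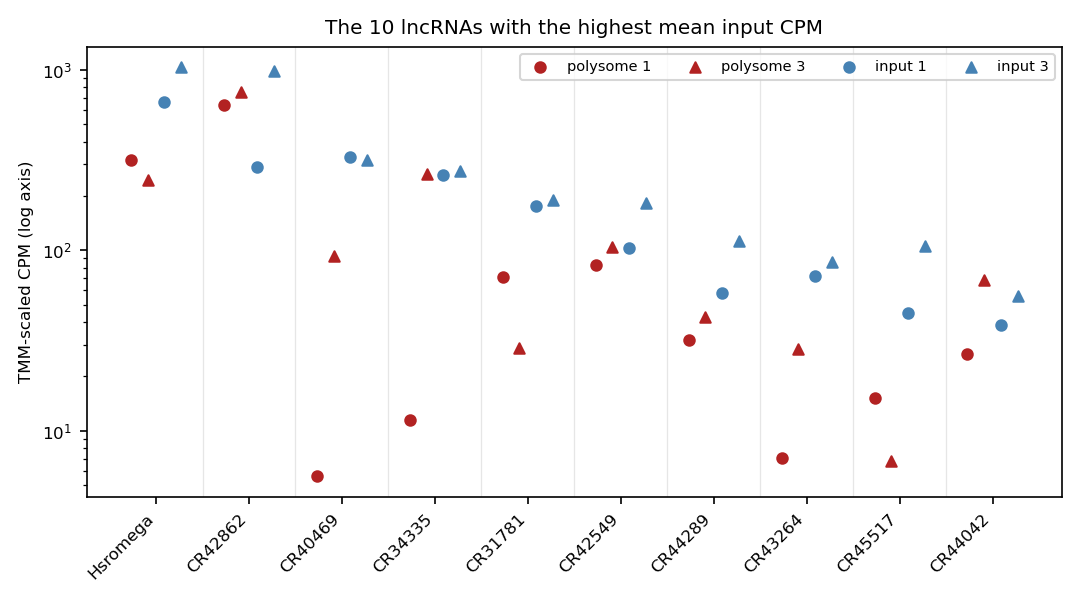
TMM-scaled CPM (log axis) of the 10 lncRNAs with the highest mean input level, 1 point per library, with polysomes 1 and 3 left of inputs 1 and 3 for each gene. CR40469 and CR34335 sit at 5.58 and 11.5 CPM in polysome 1 and at 92.9 and 265 CPM in polysome 3, whereas their 2 inputs lie close together.

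The order of the next members differed between fractions. CR42862 (chr3L:224106-230964) has 3 merged exons and lies inside or across CG33229 on the same strand. It had 636 and 758 CPM in polysomes 1 and 3 and 289 and 991 CPM in inputs 1 and 3. By CPM it was the highest member of both polysomes. By TPM it had 247.5 in polysome 3, below CR34335 at 1314 and CR40469 at 778. The fractions of CR42862 overlapped, with log2 ratios of 1.14 and -0.39. Its exons share 246 bases with those of CG33229, so some of its reads could not be assigned to either gene. CR31781 (chr2L:16869346-16878300), between coding genes, had 70.9 and 28.7 CPM in the polysomes against 176 and 191 CPM in the inputs. CR42549, inside or across the gene mura on its strand, had 82.9 and 105 CPM in the polysomes against 103 and 183 CPM in the inputs. Its values overlapped, whereas those of CR31781 did not. CR44289 had 31.9 and 42.9 CPM in the polysomes against 57.7 and 113 CPM in the inputs, also without overlap. CR44042, beside l(2)41Ab, had 26.8 and 68.2 CPM in the polysomes and 38.7 and 55.5 CPM in the inputs, with overlap and with opposite signs in the replicates.

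Per base of transcript, 3 short single-exon lncRNAs of the X chromosome came first. CR40469 (chrX:122493-122706, 214 bases) averaged 2328 TPM in the inputs, CR34335 (chrX:3545750-3546110, 361 bases, inside DIP-alpha on its strand) 1138 TPM, and CR43264 (chrX:5831898-5832215, 318 bases) 381 TPM. No other member exceeded CR42862 at 181 TPM. Hsromega, first by CPM, was 11th by TPM at 60.3, over a merged exonic length that includes its longest isoforms. The inputs of these 3 RNAs were close to each other: 2343 and 2312 TPM for CR40469, 1092 and 1184 TPM for CR34335, and 342 and 420 TPM for CR43264. Below them neighbours in the order mostly did not differ beyond the spread of the inputs: CR42862 had 79.9 and 282 TPM, CR45517 88.5 and 213 TPM, CR42549 79.0 and 145 TPM, and CR31781 99.6 and 111 TPM.

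Polysome over input was below 1 in both replicates for 41 of the 78 lncRNAs (52.6%), where 26.8% of all genes at the minimum were. It was above 1 in both for 6 (7.69%), where 25.5% of all genes were. The other 31 (39.7%) were split, where 47.7% of all genes were. Of these 31, 21 were higher in replicate 1 and lower in replicate 3, and 10 were the reverse. Both polysome values lay below both input values for 32 members (17.6% of all genes) and above them for 5 (17.9% of all genes). The ratio sorted the members, and the minimum of 20 counts admits lower CPM in polysomes than in inputs, so no test was made of these counts. Among the 60 members and 7252 genes with at least 2 CPM in every library, an alternative chosen after seeing the data, 28 members (46.7%) and 26.0% of genes were lower in both, and 5 members (8.33%) and 26.1% of genes were higher in both.

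The median log2 polysome over input of the members was -0.47 in replicate 1 and -0.98 in replicate 3. Among 4678 protein-coding genes between the 10th and 90th percentile of the members' input CPM, it was 0.08 and 0.22, and 19.4% were lower and 31.7% higher in both replicates. These coding genes were limited in range but not matched, with a median input of 29.1 CPM and length of 1904 bases. The members had medians of 14.1 CPM and 1334.5 bases. Each replicate alone gave more lncRNAs lower than higher: 51 of 78 (65.4%) in replicate 1, where 49.7% of all genes were lower, and 62 of 78 (79.5%) in replicate 3, where 51.7% were. Of the asRNA: symbols 13 of 22 were lower and 2 higher in both, and of the lncRNA: symbols 28 of 56 were lower and 4 higher in both. The median of replicate 1 was -0.79 for asRNA: and -0.44 for lncRNA: symbols, and the difference was not tested. More than 2-fold lower in both replicates were 15 members (2.11% of all genes), and more than 2-fold higher in both was 1 (1.56% of all genes).

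The 2 replicates ordered the members differently. Across the 78 genes the log2 ratios of replicates 1 and 3 had a Pearson r of -0.003, and across all 7448 genes 0.066. The gap between the 2 ratios had a median of 1.52 on the log2 scale among members and 0.77 among all genes. Log2 CPM of the members correlated at 0.870 between the inputs and at 0.606 between the polysomes, so the disagreement was larger in the polysome libraries. Genes within a library are not independent replicates, and these correlations describe the libraries only. The edgeR quasi-likelihood test across 9038 genes, all 78 members among them, called 0% of genes higher and 0% lower in polysomes at an adjusted p under 0.05. The smallest adjusted p was 0.956, 423 genes had an unadjusted p under 0.05, and DESeq2 called 62 genes. The labels do not state whether replicates 1 and 3 were separate groups of flies, so the p-values reflect the spread among these 4 libraries alone, and that spread may be technical.

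**Figure D2:**
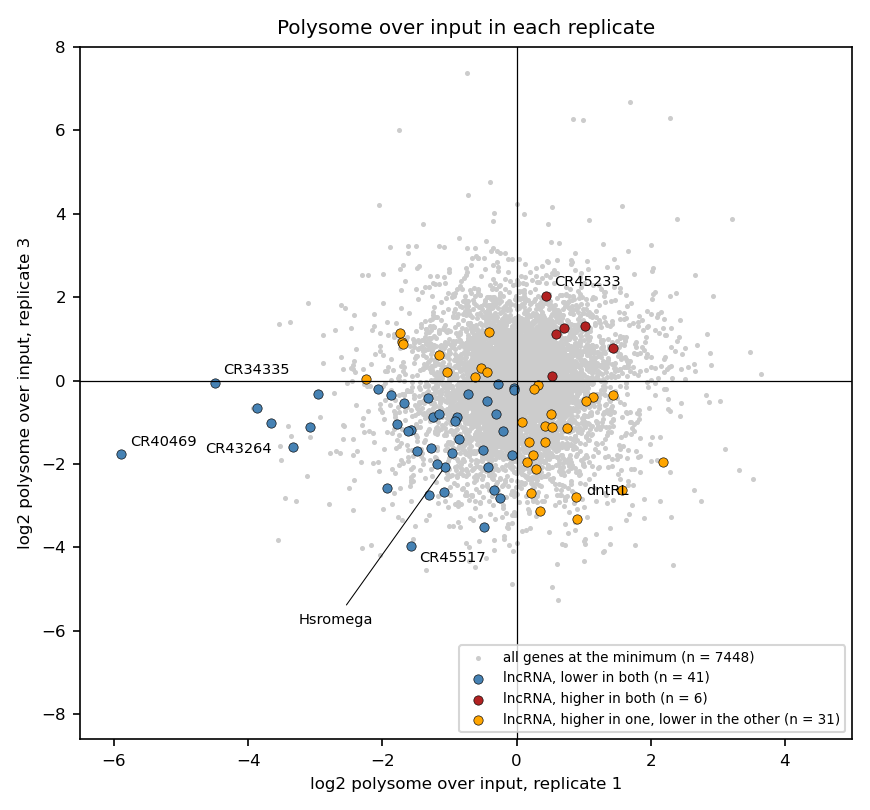
Log2 polysome over input in replicate 1 (x axis) and replicate 3 (y axis) for the 78 lncRNAs, coloured by side, over the 7448 genes at the minimum in grey. The lower left quadrant holds 41 lncRNAs and the upper right 6, and the points show no common slope.

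The lowest ratios included those of 4 short RNAs, 3 of them among the 10 most abundant. CR40469 had 5.58 and 92.9 CPM in polysomes 1 and 3 against 331 and 317 CPM in inputs 1 and 3, which are log2 ratios of -5.89 and -1.77. CR34335 had 11.5 and 265 CPM in the polysomes against 260 and 274 CPM in the inputs (-4.50 and -0.05). Polysome 1 was thus far below the inputs for both genes, whereas polysome 3 reached the input level of CR34335, whose counting interval in replicate 3 included 0 (-0.11 to 0.01). CR43264, which lies across CG15765 on the other strand, had 7.09 and 28.5 CPM in the polysomes against 71.7 and 85.5 CPM in the inputs (-3.34 and -1.59). CR42861, 549 bases on the X chromosome, had 1.89 and 5.43 CPM in the polysomes against 23.8 and 10.9 CPM in the inputs (-3.65 and -1.01). For both of these, each polysome value lay below each input value.

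The other 4 of the 8 lowest were longer. CR45517 (chrX:5428483-5429256, 774 bases) had 15.1 and 6.78 CPM in the polysomes against 45.2 and 105 CPM in the inputs, with its lower ratio in replicate 3 (-1.58 in replicate 1 and -3.96 in replicate 3). CR44043 had 9.59 and 6.70 CPM in the polysomes against 36.4 and 39.8 CPM in the inputs (-1.93 and -2.57), and was the most even of the 8 across replicates. It lies across l(2)41Ab on the other strand, near CR44042, which was split. The antisense RNA asRNA:CR45185 had 1.65 and 19.1 CPM in the polysomes against 24.1 and 30.3 CPM in the inputs (-3.86 and -0.67). It overlaps the chitinase gene Cht6, which had 33.7 and 8.22 CPM in the polysomes against 40.0 and 42.5 CPM in the inputs, so the lower polysome was replicate 1 for the antisense RNA and replicate 3 for Cht6. CR32218, overlapped by Su(Tpl) and Mi-2 on its own strand, had 1.04 and 13.4 CPM in the polysomes against 8.74 and 29.3 CPM in the inputs (-3.07 and -1.13), and its fractions overlapped.

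Each of the 6 lncRNAs higher in both replicates was scarce, at no more than 17.6 CPM in any library. The antisense RNA asRNA:CR44030, on the fourth chromosome opposite fuss, had 10.4 and 6.41 CPM in the polysomes against 5.15 and 2.57 CPM in the inputs, and was the only member more than 2-fold higher in both (1.02 and 1.32). Its partner fuss, a gene for a Ski/Sno family protein, had 2.27 and 5.84 CPM in the polysomes and 3.01 and 5.97 CPM in the inputs. The antisense RNA asRNA:CR45485, opposite Had1, had 17.6 and 8.59 CPM in the polysomes against 6.51 and 4.96 CPM in the inputs. Its exons share 346 bases with those of a coding gene on its own strand. CR43301, beside drn, had 8.60 and 9.95 CPM in the polysomes against 5.25 and 4.13 CPM in the inputs. For all 3 the counting interval lay above 0 in both replicates, and no other member higher in both had this.

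The remaining 3 were less well resolved. CR45233, the member with the lowest input level, had 61 and 191 counts in the polysomes against 22 and 21 in the inputs, and its ratio of 2.03 in replicate 3 was the highest there, beside 0.43 in replicate 1. Its mean log2 ratio was 1.23 on the counted strand and 0.09 with unstranded counts. CR43836 had 3.78 and 14.5 CPM in the polysomes and 2.53 and 6.71 CPM in the inputs, with overlap. Its exons share 473 bases with those of a coding gene on its own strand. CR44589, 238 bases, had 4.63 and 4.19 CPM in the polysomes against 3.21 and 3.86 CPM in the inputs, with counting intervals that included 0 in both replicates (-0.05 to 1.15 and -0.41 to 0.67). Its mean log2 ratio was 0.33 on the counted strand and -2.08 with unstranded counts. For CR45233 and CR44589 the unstranded counts were not the sum of the reads on each strand.

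**Figure D3:**
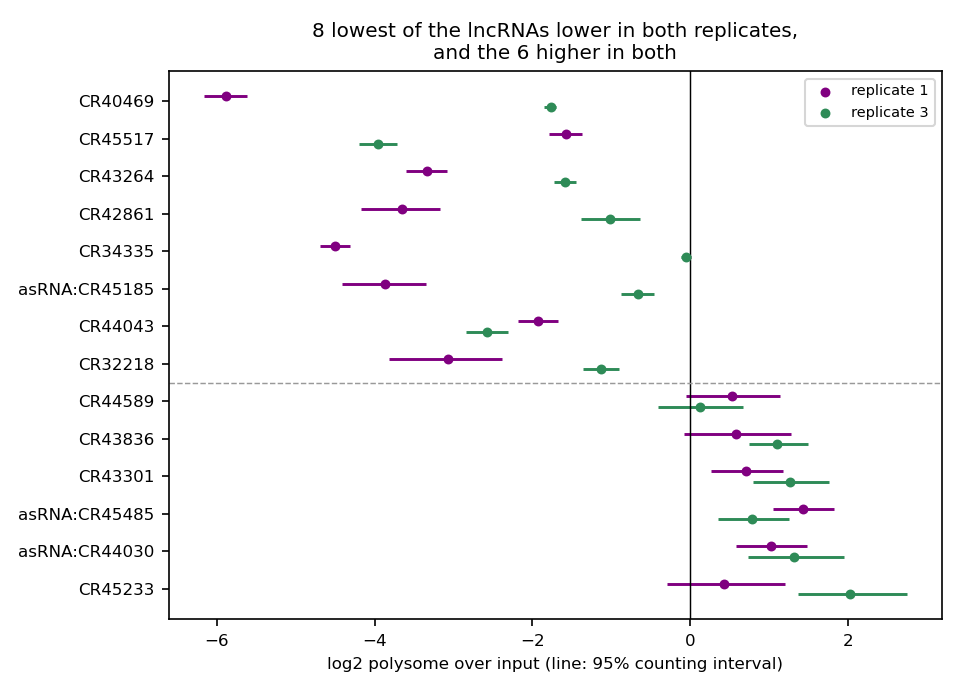
Log2 polysome over input (x axis) of the 8 lowest lncRNAs among those lower in both replicates and, under the dashed line, the 6 higher in both. Points are replicates 1 and 3 and lines are 95% counting intervals, which cover counting error only; the replicates lie far outside each other's intervals for CR40469 and CR34335, and close together for CR44043 and asRNA:CR44030.

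Many members differed from equal levels by more than counting error, the split ones included. The counting interval excluded equal levels for 59 members in replicate 1, for 61 in replicate 3 and for 47 in both. Of these 47, 28 were lower in both, 3 higher in both, and 16 lay on opposite sides. Higher in replicate 1 and lower in replicate 3 were 11 of the 16, and lower in replicate 1 and higher in replicate 3 were 5. Counting intervals were computed for the members alone, so no share of all genes stands beside these counts.

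The 11 included dntRL, a lncRNA next to CG17486, with 16.7 and 3.25 CPM in polysomes 1 and 3 and 9.03 and 22.5 CPM in inputs 1 and 3, and mimi, with 22.0 and 20.9 CPM in the polysomes and 13.0 and 46.0 CPM in the inputs. CR43656 also changed side, with 15.0 and 4.77 CPM in the polysomes and 3.30 and 18.6 CPM in the inputs, or log2 ratios of 2.19 and -1.96. For each of these 3 RNAs input 1 was below input 3. The muscle sheath genes had medians of -0.13 and -2.01 over 10 genes, 7 of them lower in both replicates and none higher in both. The 3 hemocyte genes Hml, Pxn and NimC1 were all higher in replicate 1 and lower in replicate 3. Of all genes at the minimum, 26.8% were lower in both, 25.5% higher in both and 47.7% split. The hemocyte genes summed to 1196 and 264 CPM in the polysomes, against 1054 and 1365 CPM in the inputs. The part of muscle and blood cell RNA in the levels of these lncRNAs was not tested.

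The 5 with the opposite pattern were CR44042, CR45102, CR30055, asRNA:CR44291 and CR46035. CR45102, 185 bases from Mnt, had 11.3 and 61.0 CPM in the polysomes and 25.2 and 40.0 CPM in the inputs. CR30055, across the corepressor gene Sin3A on the other strand, had 9.36 and 47.5 CPM in the polysomes and 30.7 and 24.9 CPM in the inputs. In both, polysome 3 was the highest library and polysome 1 the lowest. The summed level of the follicle and eggshell genes was also highest in polysome 3, through the chorion genes, whereas Fas3 was lowest there at 266 CPM and Vm26Ab was higher in polysome 1, at 765 CPM, than in polysome 3, at 459 CPM. Of 7 of these genes at the minimum, 6 were higher in both replicates and Fas3 was lower in both, with medians of 0.87 and 1.30. Of 3 yolk protein genes 2 were higher in both and none lower in both, and of 6 germline genes 1 was lower in both (piwi) and 1 higher in both (zpg). Of the fat body list Lsp2 was higher and Col4a1 lower in both, and in the testis list bol alone reached the minimum and was lower in both. Beside these lists, 26.8% of all genes at the minimum were lower and 25.5% higher in both. The part of follicle cell RNA in these 5 lncRNAs was not tested.

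Length divided the members differently in the 2 replicates. Exonic lengths ran from 214 to 21710 bases with a median of 1334.5, and 41 members had a single exon. Among the 15 members of up to 600 bases the median log2 ratio was -1.04 in replicate 1 and -0.41 in replicate 3. Among the 19 members over 2400 bases it was -0.04 in replicate 1 and -1.66 in replicate 3, with 18 of the 19 lower in replicate 3 and 10 of the 19 lower in replicate 1. Without the 10 members of highest input CPM the short class had medians of -0.42 and -0.32 (12 genes) and the long class 0.06 and -1.64 (16 genes).

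Protein-coding genes also differed with length. The 202 coding genes of up to 600 bases had medians of -0.47 in replicate 1 and 0.15 in replicate 3, and the 3293 over 2400 bases had -0.01 and -0.32. More than 2-fold lower in replicate 1 were 8 of the 15 short lncRNAs (53.3%) and 26.2% of short coding genes, and more than 2-fold lower in replicate 3 were 13 of the 19 long lncRNAs (68.4%) and 24.8% of long coding genes. Across the 78 members Pearson's r of log2 ratio with log2 length was 0.296 in replicate 1 and -0.223 in replicate 3, and across all genes 0.017 and -0.263. The part of RNA recovery or fragmentation by length in these ratios was not tested.

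**Figure D4:**
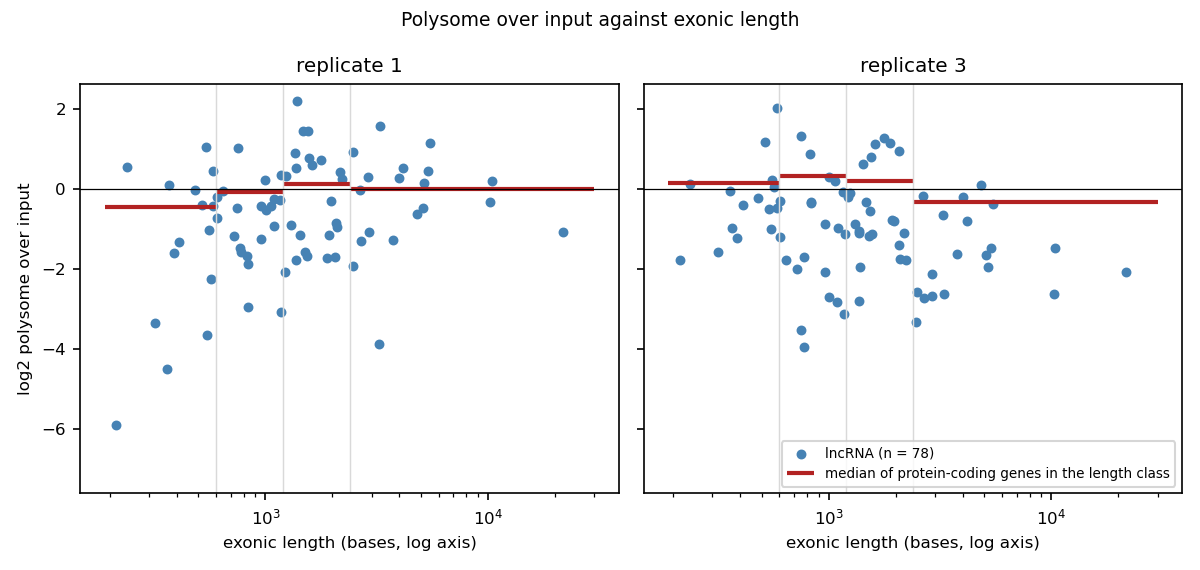
Log2 polysome over input of the 78 lncRNAs (points) against exonic length (log axis) in replicate 1 (left) and replicate 3 (right), with the median of protein-coding genes in each of 4 length classes (bars). Members up to 600 bases reach -5.89 in replicate 1, and 18 of 19 members over 2400 bases lie below 0 in replicate 3.

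The members' places in the genome were mixed. The X chromosome held 19, 3L 17, 3R 16, 2R 12, 2L 11 and the fourth chromosome 3. No protein-coding gene overlapped 28 of them, and 10 lay inside or across a coding gene on the same strand alone. Another 14 crossed a coding gene on the other strand with exons apart. The exons of 26, all 22 asRNA: genes among them, overlapped exons on the other strand. Overlap on the other strand was classed first, and asRNA:CR45485, asRNA:CR45600, asRNA:CR45873 and CR43836 also overlapped a coding gene on their own strand. Lower in both replicates were 16 of 28, 5 of 10, 6 of 14 and 14 of 26 of these classes, and higher in both were 2, 0, 1 and 3. Over all 78 members 52.6% were lower and 7.69% higher in both, and over all genes at the minimum 26.8% and 25.5%. Differences between these small classes were not tested. The start of a coding gene on the other strand lay head to head within 1000 bases of 25 members, and 12 members had the end of a coding gene upstream on their own strand within 1000 bases.

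Antisense genes can only be counted with strand. The counted strand held 95.3% to 97.1% of strand-assigned reads, and among 1039 coding genes with no overlap on the other strand 0.0738% to 0.139% of reads fell on the wrong strand. At that rate, reads leaking from an overlapping gene would be at most 3.92% of any member's counts. On the members' loci, 34 had no read on the other strand, 46 had at least 95% of reads on their own strand, 25 had 50% to 95% and 7 had under 50%. At those 7, more reads summed over the 4 libraries fell on the strand of the gene opposite than on their own. Single libraries could differ: asRNA:CR44029 had 53.1% of reads on its own strand in polysome 1 and 59.1% in input 3, and asRNA:CR44599 57.0% in input 3.

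**Figure D5:**
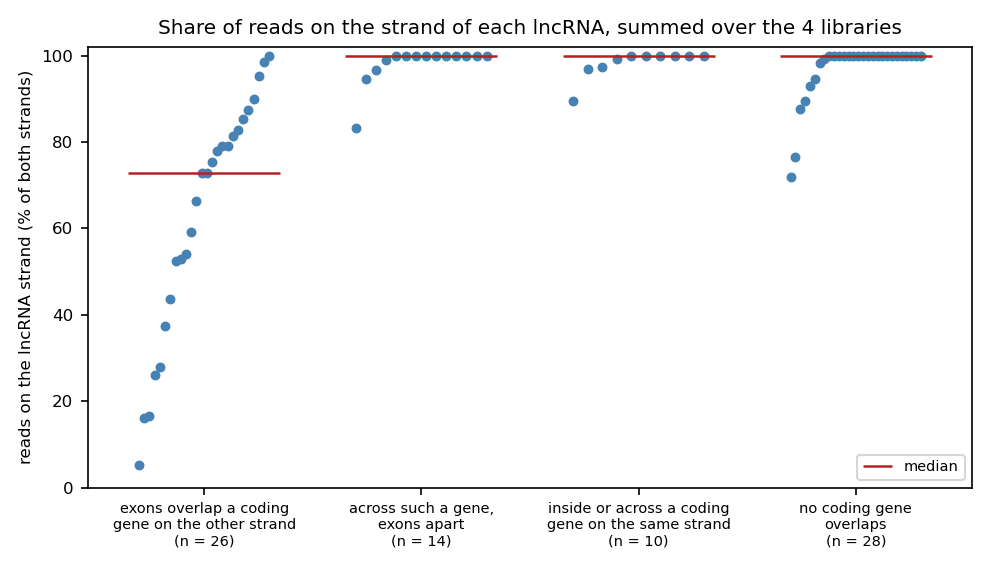
Reads on the strand of each lncRNA as a percentage of reads on both strands of its exons, summed over the 4 libraries, with 1 point per lncRNA, grouped by overlap with protein-coding genes and ordered within each group; bars are medians. The median is 72.8% where exons overlap a coding gene on the other strand and 100% in the other 3 groups.

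The 5 lowest own-strand shares were at antisense genes. At asRNA:CR45999, opposite CG9855, 5.27% of reads were on its own strand, and it had 3.40 and 1.27 CPM in the polysomes against 7.58 and 2.21 CPM in the inputs, where CG9855 had 44.1 and 70.7 CPM against 78.9 and 59.6 CPM. At asRNA:CR43944, opposite the pantothenate kinase gene fbl, the share was 16.0%. The antisense RNA had 3.31 and 5.34 CPM in the polysomes against 10.6 and 7.81 CPM in the inputs, without overlap, while fbl had 71.4 and 64.5 CPM against 36.0 and 47.0 CPM and was higher in both. At asRNA:CR44291, opposite CG31460, the share was 16.7%, with 2.08 and 7.89 CPM in the polysomes and 6.70 and 4.32 CPM in the inputs, and CG31460 varied little (25.8 and 25.7 CPM against 27.8 and 24.6 CPM). At asRNA:CR46195, opposite the noncanonical poly(A) polymerase gene Trf4-1, it was 28.0%, with 2.08 and 1.56 CPM in the polysomes against 5.83 and 5.05 CPM in the inputs.

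The remaining pair lies at a heat shock gene. The antisense RNA asRNA:CR43481 (chr3L:9378160-9381119) overlaps the small heat-shock gene Hsp67Ba over 1316 exonic bases, and 26.0% of reads there were on its strand. It had 36.1 and 11.0 CPM in polysomes 1 and 3 and 29.4 and 48.1 CPM in inputs 1 and 3. Hsp67Ba had 153 and 63.7 CPM in the polysomes and 112 and 220 CPM in the inputs, so both RNAs of the locus were lowest in polysome 3 and highest in input 3. Their log2 ratios were 0.30 and -2.13 for the antisense RNA and 0.46 and -1.79 for Hsp67Ba.

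Members and the coding genes opposite them did not move together as a rule. Of 31 members whose partner on the other strand also reached the minimum, 15 had the partner's sign in replicate 1 and 19 in replicate 3. The member's ratio was below its partner's in both replicates for 13 and above it in both for 5. Partner medians were -0.17 and -0.40, against -1.08 and -0.55 for these members. For 9 members with a coding gene at the minimum close upstream on the same strand, the sign was shared by 3 in replicate 1 and by 4 in replicate 3.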

How the data were processed

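Poly(A) libraries of cyst-enriched ovaries, 2 polysome and 2 input, were grouped by their labels. The authors mapped reads with STAR 2.6.1c to dm6, per the submitters' processing notes, and deposited raw counts per gene, not normalized, unstranded and for each strand. The column of the strand that a directional kit reads (column 4) was used. Reads naming no gene stayed out of totals. They were 10.8% and 33.9% of reads in polysomes 1 and 3, and 42.6% and 33.2% in inputs 1 and 3. Names, lengths and places came from the BDGP6.54 annotation, release 115, which matched 17561 of 17699 identifiers.

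CPM used TMM factors of edgeR 4.0.16 in R 4.3.3, and TPM the merged exon length. Ratios were taken between equal replicate numbers, which the study's translational efficiency (TE) treats as 1 lysate, with no pseudocount. All genes kept by filterByExpr were tested by edgeR's quasi-likelihood test on polysome against input, Benjamini-Hochberg adjusted and called under 0.05, and by DESeq2 1.42.0. This script was tested on simulated data. The deviations of equal-numbered libraries correlated at -0.07 across 9038 genes, which gives the pairing no backing in the values, and a replicate block was fitted as an alternative.

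Members and lists were chosen with earlier results of these data known. Named were the 10 members of highest mean input CPM, the 8 lowest and up to 8 highest mean log2 ratios among those on 1 side in both replicates, members with a described role, the 3 members nearest the minimum on each side of it, and the 5 lowest own-strand shares. The other split members, CR45102, CR30055, CR43656, CR46035 and mimi, were picked once their values had been seen. Alternatives included other scalings, count minimums, unstranded counts, subtraction of wrong-strand reads, TE with 1 TPM added, crossed inputs and leaving out libraries.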

Additional observations from a re-analysis of the deposited data

How the results depend on the processing

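The 41 lower in both replicates ranged over 33 to 45 across the following alternatives. Other scalings, TE with 1 TPM added, subtraction of wrong-strand reads and inputs of the other number kept all 78 members. A minimum of 10 counts gave 45 of 94 members, and unstranded counts 35 of 66. With inputs of the other number the totals were again 41 and 6, but not of the same genes. Under both pairings 32 members were lower and 5 higher. CR34335 and CR32218 were not lower in both with crossed inputs, since polysome 3 lay above input 1 (265 against 260 CPM and 13.4 against 8.74 CPM). At 50 counts in each library 47 members remained, 25 lower and 1 higher in both. The 6 higher in both became 10 with total-count CPM, 10 with totals without eggshell, yolk and muscle genes, 10 at a minimum of 10 counts and 2 with unstranded counts. In 1 replicate alone (chosen after seeing the data) 51 to 62 were lower and 16 to 27 higher. Total-count scaling moved the median of all genes by 0.17 in replicate 1 and 0.28 in replicate 3 on the log2 scale. By TE the medians were -0.14 in replicate 1 and -0.61 in replicate 3, and 33 were lower and 9 higher in both. Of 29 named members, the mean ratio changed sign in 3 without replicate 1 (CR42862, CR44042, asRNA:CR44291), in 3 without replicate 3 (asRNA:CR43481, Irar, dntRL), in CR44042 with total-count CPM, in CR44042 and Irar by TE, and in none with DESeq2 factors. With unstranded counts, which gave a value for 24 of them, it changed sign in CR44589.

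Across all genes 0 were called by edgeR (423 at an unadjusted p under 0.05), against 62 by DESeq2, 104 without a count filter and 47 with the replicate block for the pairing. Leaving out 1 library gave 0 to 695 calls: 695 without polysome 1, 53 without polysome 3, 8 without input 1 and 0 without input 3. With 2 libraries a fraction, and members near 20 counts, counting error alone spans more than 2-fold for the scarcest ratios. The causes of these differences were not tested.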
